A study of Drosophila melanogaster with 2 samples.

Results

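Genes of midgut digestive enzymes and their families were examined on 2 two-colour microarrays of the fruit fly Drosophila melanogaster. The members were genes with a probe of exactly 1 annotated symbol that belonged to the Jon and Try proteases, the Mal, Amy and LMan carbohydrate enzymes or the Lys lysozymes, or that encoded the lipase mag. The naming rule found 54 such genes among 12236 genes on the array: 27 proteases, 19 carbohydrate enzymes, 7 lysozymes and 1 lipase. Each gene had 1 probe. Members were matched by name, but the naming rule was set with earlier results of these data known.

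Both arrays compared larvae of a cross between GMR and a GFP-B52 line with larvae of a cross between GMR and a GFP-NLS line, which served as controls. B52 is an SR protein, a splicing factor rich in serine and arginine, here fused to green fluorescent protein, and in the controls the fluorescent protein was targeted to the nucleus instead. GMR names a promoter active in the developing eye, so both groups share an eye-directed transgene, while most genes described here are known for the gut. The dyes were exchanged between the arrays, with B52 RNA in Cy5 on replicate 1 and in Cy3 on replicate 2. The experiment asked whether extra B52 changes gene expression in general. The labels give the molecule of the control RNA on replicate 1 as cytoplasmic and that of the 3 other channels as polyA. The sources used here give neither the larval age nor the number of larvae per extract. Nor do they state that the arrays held separate extracts, so every p-value rests on a spread between arrays that may be technical.

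Enterocytes of the fly midgut secrete enzymes that break food down in the gut lumen. Trypsins and the chymotrypsin-like Jonah proteases cut proteins, amylase cuts starch into maltose, and maltases release glucose. Lysozymes of flies are known chiefly as digestive enzymes that attack the walls of ingested bacteria, and neutral lipids are split by lipases such as mag. Many of these enzymes are encoded by tandem families whose members resemble each other in sequence.

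The deposited values are log ratios with neither direction nor base stated. Read by channel, both arrays are B52 over GFP as they stand. Read by dye, they are Cy5 over Cy3, so replicate 2 changes sign to become B52 over GFP. A gene with equal deposited signs therefore points 1 way in the channel-based reading, and a gene with opposite signs points 1 way in the dye-based reading. Values of single arrays below are always given as deposited, and the labels do not settle which reading is right. A log ratio shows no level, so the presence of midgut RNA on the arrays could not be checked from marker genes. In RNA of whole animals, fewer cells of a type and less RNA per cell cannot be told apart.

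Values were present for 13919 spots of replicate 1 and 14026 of replicate 2. Both arrays measured 38 of the 54 genes. Only replicate 1 measured 6 genes, only replicate 2 measured 4, and 6 had no value on either array. The genes without any value were the Jonah proteases Jon65Ai and Jon99Ciii, the maltases Mal-A2 and Mal-A3, the amylase-related gene Amyrel and the mannosidase LManIV. Thus 29.6% of the digestive enzyme genes lacked a value on at least 1 array, against 14.8% of all probes with 1 symbol. A value was lacking for 8 of 19 carbohydrate enzymes and 8 of 27 proteases, while all 7 lysozymes were measured on both arrays. Precision is limited by the number of arrays.

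Averaged over both arrays, the largest values among the digestive enzyme genes in either reading belonged to the lysozymes LysB, LysC, LysD and LysS, the amylase Amy-d and the maltase Mal-A1, with dye-based means between 0.385 and 0.647. All 6 were positive on replicate 1 and negative on replicate 2 as deposited. In the dye-based reading these values mean higher in B52 larvae on both arrays, and in the channel-based reading they mean opposite directions on the arrays. Protease means lay between -0.301 and 0.213 in the channel-based reading and between -0.235 and 0.16 in the dye-based reading. No digestive enzyme gene passed the test described next.

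**Figure D1:**
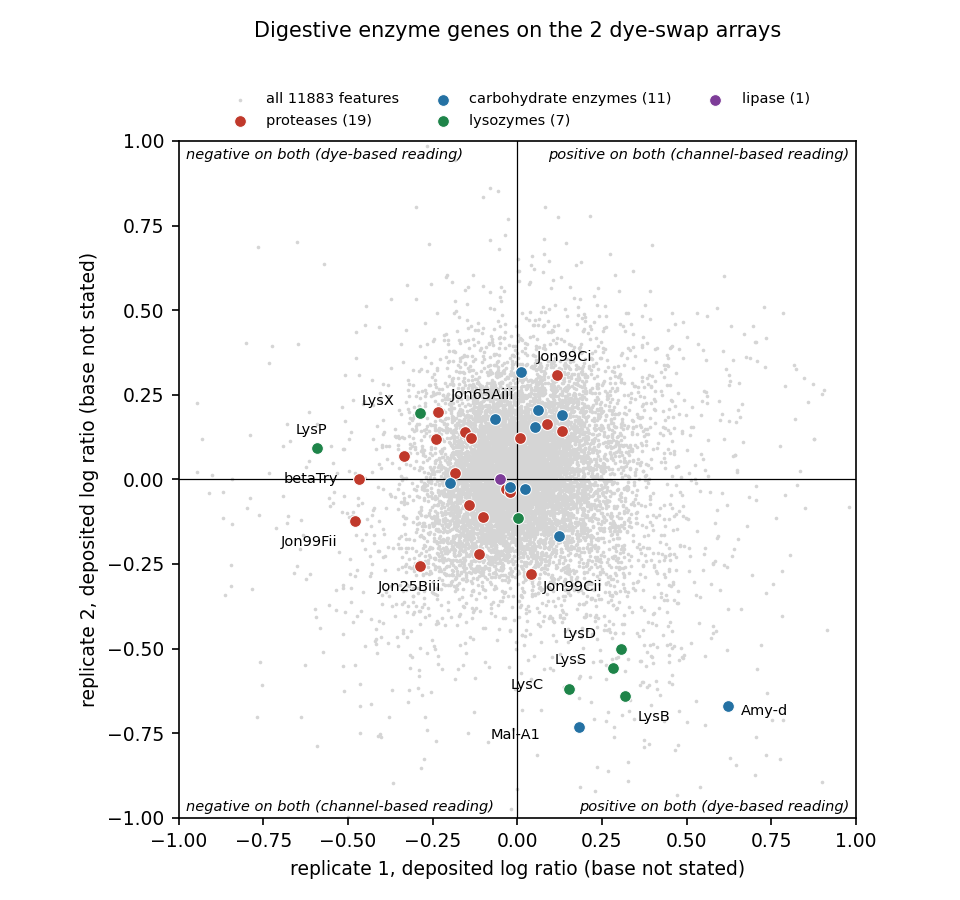
Deposited log ratio on replicate 1 (horizontal axis) and replicate 2 (vertical axis) of the 38 genes measured on both arrays, coloured by enzyme class, over all 11883 features in grey; the base of the logarithm is not stated and a few grey points lie outside the axes. LysB, LysC, LysD, LysS, Amy-d and Mal-A1 lie apart at the lower right, where values are positive on both arrays in the dye-based reading.

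The mean of both arrays was tested against 0 for each of 11883 features with limma, with Benjamini-Hochberg adjustment over all of them. A feature was the mean of the probes of a gene, or a single probe without exactly 1 symbol. At the 0.05 level of the adjusted p, limma called 0 features (0%) in the channel-based reading and 0 (0%) in the dye-based reading, and hence 0 of the 38 digestive enzyme genes in either. The robust form of limma also called 0 in both. An unadjusted limma p under 0.05 was found for 2 of the 38 genes in the channel-based reading, against 6.86% of all features, and for 8 of the 38 in the dye-based reading, against 5.55% of all features. The 2 genes were Jon25Biii and Jon99Fii. The 8 genes were LysB, LysC, LysD, LysS, LysP, LysX, Amy-d and Mal-A1. The robust form had 814 and 638 features under that unadjusted p in the channel-based and dye-based readings.

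Signs were counted beside the test. Over all 11883 features, the deposited values of the 2 arrays had a Pearson correlation of 0.0308 and a Spearman correlation of 0.0668. The arrays thus had little general agreement in either reading. In the channel-based reading 8 of the 38 genes were positive on both arrays, against 27.5% of all features, and 9 were negative on both, against 24.9%. In the dye-based reading 10 were positive on both, against 21.9%, and 11 were negative on both, against 25.7%. As shares of the 38 genes these counts were 21.1%, 23.7%, 26.3% and 28.9%, so near the background that they are no result about the members as a whole. The median of the 38 gene means was -0.0383 ± 0.0120 in the channel-based reading and -0.0315 ± 0.0191 in the dye-based reading (SD of the 2 array medians). Over all features it was 0.0075 and -0.008. The array medians of the 38 genes were -0.022 and -0.005 by channel and -0.022 and 0.005 by dye. Both medians of gene means lay outside these, so the SD does not measure their error. The plot of gene means by enzyme class draws each class separately. The ranges of the proteases, carbohydrate enzymes and lysozymes overlapped in both readings.

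A size of log10(2), which is 0.301 and means 2-fold only if the values are log10, was reached with the same sign on both arrays by 0 of the 38 genes in the channel-based reading. The background there was 0.698% of features positive and 0.766% negative. In the dye-based reading 3 genes reached it in the positive direction, Amy-d, LysB and LysD, against 1.2% of all features, and 0 in the negative direction, against 0.185%.

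**Figure D2:**
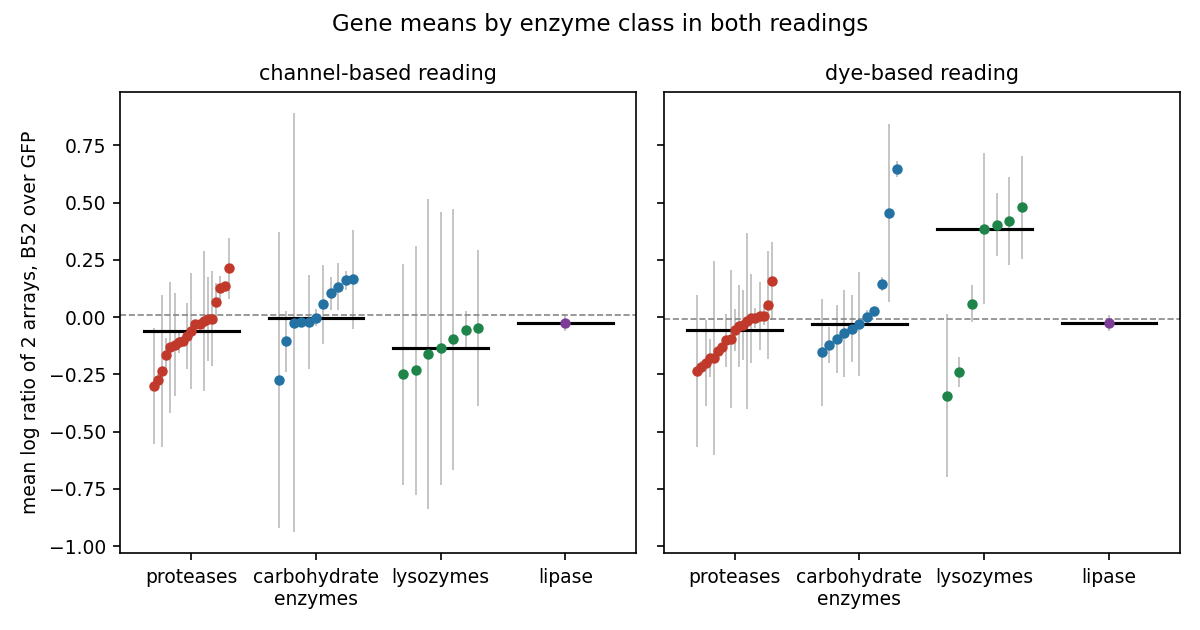
Mean log ratio of the 2 arrays, B52 over GFP, for each gene measured on both arrays (points, with bars of 1 SD between arrays) by enzyme class, in the channel-based reading (left) and the dye-based reading (right); black lines are class medians and the dashed line is the median of all features. Lysozymes split into 2 negative and 5 positive genes in the dye-based reading, with a median of 0.385, and are all negative in mean with wide bars in the channel-based reading.

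Among the lysozymes, LysB had 0.319 on replicate 1 and -0.639 on replicate 2. The dye-based mean of 0.479 ± 0.226 (SD, n = 2 arrays; limma adjusted p = 0.488) would be 3.01-fold for log10 and 1.39-fold for log2 values. Its channel-based mean was -0.16 ± 0.677 (limma adjusted p = 0.951), so the difference was smaller than the spread between the arrays there.

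LysD had 0.306 on replicate 1 and -0.5 on replicate 2, a dye-based mean of 0.403 ± 0.137 (limma adjusted p = 0.551). LysC had 0.152 and -0.618, and LysS had 0.284 and -0.557, with dye-based means of 0.385 ± 0.330 and 0.421 ± 0.193 (limma adjusted p = 0.769 and 0.555). The size of these 4 genes was larger on replicate 2 than on replicate 1 in each case. Their channel-based means lay between -0.233 and -0.097, with limma adjusted p-values from 0.893 to 0.963.

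LysE stood near 0 on replicate 1, with 0.002, and at -0.115 on replicate 2, a dye-based mean of 0.0585 ± 0.0799 (limma adjusted p = 0.999). LysP, known as a lysozyme of the adult salivary gland, went the other way, with -0.593 on replicate 1 and 0.092 on replicate 2. Its dye-based mean was -0.343 ± 0.354 (limma adjusted p = 0.884), and the size rested mostly on replicate 1. LysX, known for expression in the gut at metamorphosis, had -0.287 and 0.195, a dye-based mean of -0.241 ± 0.0651 (limma adjusted p = 0.882). Read by channel, LysE, LysP and LysX had means of -0.0565, -0.251 and -0.046 (limma adjusted p = 0.952, 0.852 and 0.977).

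The class as a whole therefore held 5 of 7 genes positive and 2 negative on both arrays in the dye-based reading, against 21.9% and 25.7% of all features. By construction 0 of 7 then had the same sign in the channel-based reading, where 27.5% of all features were positive and 24.9% negative. Its median was 0.385 ± 0.246 in the dye-based reading and -0.137 ± 0.461 in the channel-based reading. LysB, LysC, LysD and LysE are nearly identical in coding sequence, so their spots may share RNA and are not 4 independent measurements. Averaged to 1 gene, they left a lysozyme median of 0.0452 in the dye-based reading. This median fell in a gap between values of both signs. Below it were LysP with -0.3425 and LysX with -0.241, and above it were LysS with 0.4205 and the averaged gene.

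The position of genes and spots may be set beside these values. In the gene order of the RefSeq table (assembly Release 6), LysX, LysB, LysD, LysE, LysP and LysS follow each other in that sequence with 4 other protein-coding genes between them. Genes of both signs thus lay side by side in the cluster. LysC is not in that table and kept the symbol of the array annotation. On the array, the spots of LysB, LysC and LysD held the same position, number 94, in 3 of the 24 sub-grids. The 21 other spots at this position had a median of 0.140 on replicate 1 and -0.118 on replicate 2, and 11 of the 20 measured on both arrays had the signs of LysB, against 21.9% of all features. Their dye-based median of 0.103 ranked 23 from the top among 616 positions. LysS, with 1 spot, lay at another position and had values like those of LysB. The part of spot position in the lysozyme values, including those of LysS, was not tested. With the median of each sub-grid subtracted, LysE was no longer of opposite sign on the arrays, and the other 6 lysozymes kept their signs.

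**Figure D3:**
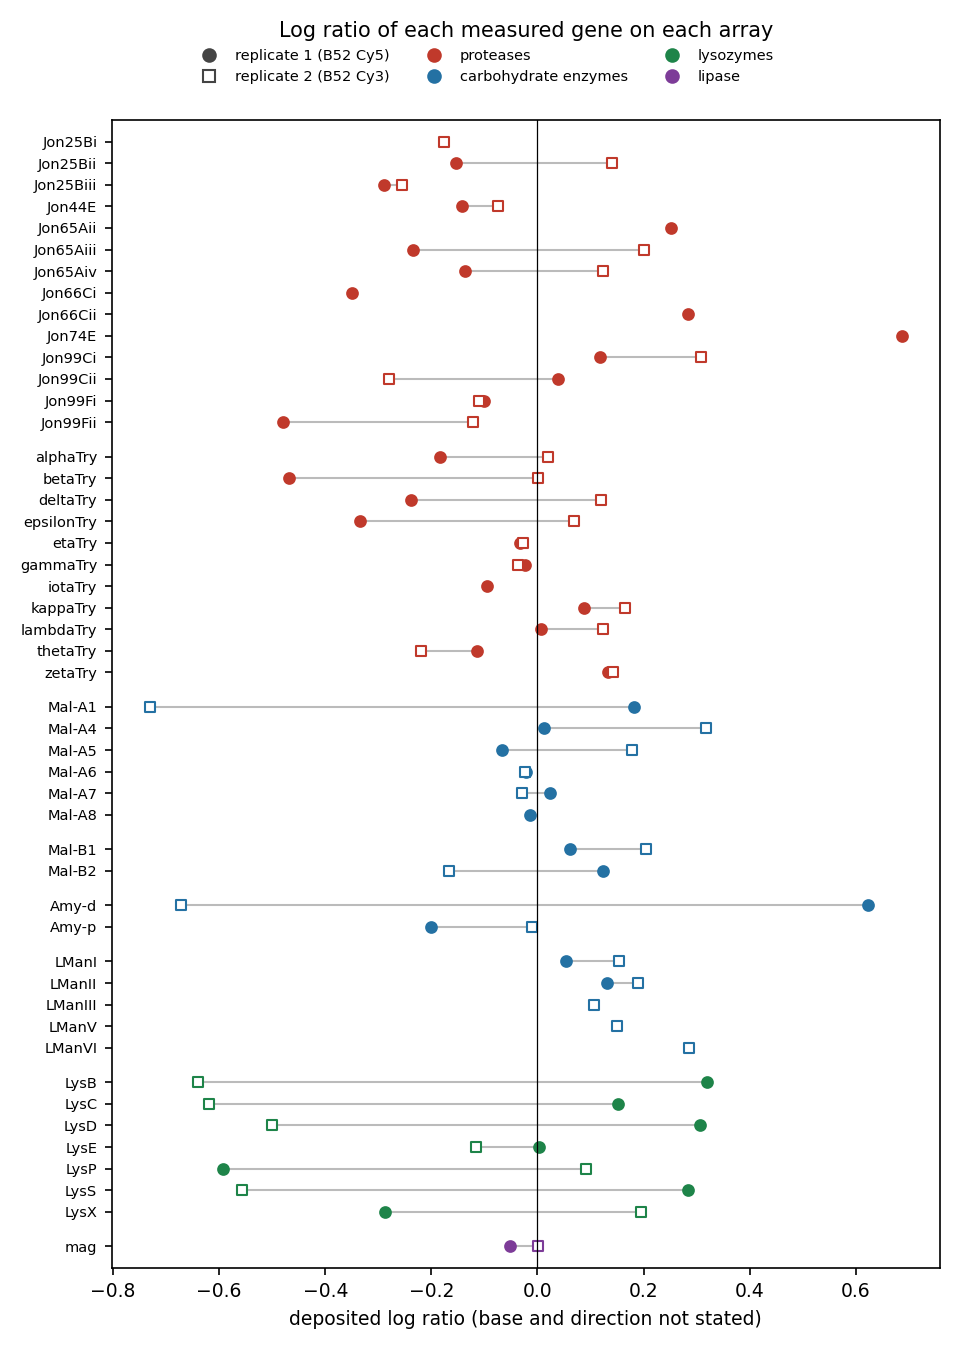
Deposited log ratio (horizontal axis, base and direction not stated) of each digestive enzyme gene with a value, by family, on replicate 1 (filled circles, B52 RNA in Cy5) and replicate 2 (open squares, B52 RNA in Cy3); grey lines join the arrays. LysB, LysC, LysD, LysS, Amy-d and Mal-A1 have long lines across 0, with replicate 2 between -0.731 and -0.5.

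Among the carbohydrate enzymes, 11 of 19 genes were measured on both arrays. Amy-d, which encodes an alpha-amylase, had 0.623 on replicate 1 and -0.671 on replicate 2. Its dye-based mean of 0.647 ± 0.0339 (SD, n = 2 arrays; limma adjusted p = 0.285) was the highest of the 38 genes and would be 4.44-fold for log10 or 1.57-fold for log2 values. Read by channel, the values cancelled to -0.024 ± 0.915 (limma adjusted p = 0.993).

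Amy-p, which encodes a nearly identical amylase, had -0.2 on replicate 1 and -0.011 on replicate 2. Its means were -0.106 ± 0.134 in the channel-based reading and -0.0945 ± 0.149 in the dye-based reading (limma adjusted p = 0.894 and 0.999). The spots of the 2 amylase genes thus had different values, although a shared coding sequence could let RNA of either gene bind to both. The probes' sequences are not used here, so which part of each transcript a spot measured is not known. In the gene order the amylase genes have 1 other protein-coding gene between them.

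Maltases of the Mal-A family, which cut maltose into glucose, are encoded by 8 adjacent genes with 0 other protein-coding genes between them, of which 5 were measured on both arrays. Mal-A1 had 0.181 on replicate 1 and -0.731 on replicate 2, the lowest value of any digestive enzyme gene on that array. Its means were 0.456 ± 0.389 in the dye-based reading and -0.275 ± 0.645 in the channel-based reading (limma adjusted p = 0.706 and 0.888). The size of Mal-A1 came mainly from replicate 2.

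The other maltases of the cluster were nearer to 0. Mal-A5 had -0.067 and 0.178, a dye-based mean of -0.123 ± 0.0785 (limma adjusted p = 0.999). Mal-A6 had -0.021 and -0.023, a channel-based mean of -0.022 ± 0.00141 (limma adjusted p = 0.981). Mal-A4 had 0.012 and 0.318, and Mal-A7 had 0.024 and -0.029. Of the 5 maltases of this cluster measured on both arrays, 1 was positive and 1 negative on both in the channel-based reading, against 27.5% and 24.9% of all features. By dye, 2 were positive and 1 negative, against 21.9% and 25.7%. With so few genes these counts are no result about the cluster. With sub-grid medians subtracted, Mal-A4 and Mal-A7 had other sign patterns. Mal-A8 had -0.014 on replicate 1 alone.

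Mal-B1 and Mal-B2, a neighbouring pair of maltase genes, differed in their signs. Mal-B1 had 0.062 and 0.205, a channel-based mean of 0.134 ± 0.101 (limma adjusted p = 0.837). Mal-B2 had 0.124 and -0.167, a dye-based mean of 0.146 ± 0.0304 (limma adjusted p = 0.999). Neither pair of values reached a size of 0.301.

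The LMan genes encode alpha-mannosidases of the lysosomal type, which remove mannose from glycans. LManI had 0.053 on replicate 1 and 0.154 on replicate 2, and LManII had 0.131 and 0.19. Their channel-based means were 0.104 ± 0.0714 and 0.161 ± 0.0417 (limma adjusted p = 0.884 and 0.775). Elsewhere in the gene order, LManIII, LManIV, LManV and LManVI adjoin each other. LManIV had no value, and replicate 2 alone measured LManIII at 0.106, LManV at 0.15 and LManVI at 0.285. All 5 measured LMan genes were therefore positive on replicate 2 as deposited, as were 6319 of all 11883 features. That sign means higher in B52 larvae in the channel-based reading and lower in the dye-based reading. The sub-grids of these 5 spots had replicate 2 medians between 0.023 and 0.168. With sub-grid medians subtracted, LManI had 0.0125 and 0.009, and LManII had 0.092 and 0.081. The part of array location in the LMan values was not tested. LManIII, LManIV, LManV and LManVI shared a spot position in 4 sub-grids.

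Over the 11 carbohydrate enzymes the median was -0.0025 ± 0.0453 in the channel-based reading and -0.0295 ± 0.0297 in the dye-based reading. In the dye-based reading the medians of the single arrays, 0.053 and 0.011, had the opposite sign to the median of the gene means. Counted on both arrays, 4 genes (36.4%) were positive and 2 (18.2%) negative by channel, against 27.5% and 24.9% of all features. By dye, 4 (36.4%) were positive and 1 (9.09%) negative, against 21.9% and 25.7%.

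The Jonah proteases, chymotrypsin-like enzymes of the gut, were measured on both arrays for 9 of 16 genes. Jon25Biii had -0.289 on replicate 1 and -0.256 on replicate 2, a channel-based mean of -0.273 ± 0.0233 (SD, n = 2 arrays; limma adjusted p = 0.690), which is 1.87-fold for log10 and 1.21-fold for log2 values. Jon99Fii had -0.479 and -0.122, and its neighbour Jon99Fi had -0.101 and -0.111, with channel-based means of -0.301 ± 0.252 and -0.106 ± 0.00707 (limma adjusted p = 0.726 and 0.867). These 3 genes and Jon44E, with -0.142 and -0.075, were negative on both arrays in the channel-based reading. With sub-grid medians subtracted Jon99Fi left this group.

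The only Jonah gene positive on both arrays in the channel-based reading was Jon99Ci, with 0.118 and 0.308, a mean of 0.213 ± 0.134 (limma adjusted p = 0.749). Its neighbour Jon99Cii had 0.039 and -0.28, a dye-based mean of 0.16 ± 0.17 (limma adjusted p = 0.999). Of the measured proteases, Jon99Cii was the only gene positive on both arrays in the dye-based reading.

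Another 3 Jonah genes were negative on both arrays in the dye-based reading. Jon65Aiii had -0.234 on replicate 1 and 0.2 on replicate 2, a dye-based mean of -0.217 ± 0.0240 (limma adjusted p = 0.932). Jon25Bii had -0.154 and 0.141, and Jon65Aiv had -0.137 and 0.123, with dye-based means of -0.148 ± 0.00919 and -0.13 ± 0.00990 (limma adjusted p = 0.999 for both). In these 3 genes the arrays had nearly the same size with opposite signs. Neighbours within a cluster did not always share a pattern: Jon25Bii and the adjacent Jon25Biii had opposite signs on replicate 2.

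Replicate 1 alone measured Jon65Aii at 0.251, Jon66Ci at -0.35, Jon66Cii at 0.284 and Jon74E at 0.687. Replicate 2 alone measured Jon25Bi at -0.176. Jon74E had the highest value of any digestive enzyme gene on replicate 1, with no second array to set beside it. The adjacent genes Jon66Ci and Jon66Cii had opposite signs.

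The trypsins form 1 cluster of 11 genes, with 3 other protein-coding genes between them, and 10 were measured on both arrays. In the gene order, lambdaTry, kappaTry and zetaTry come first, and all 3 were positive on both arrays in the channel-based reading. zetaTry had 0.132 and 0.143, kappaTry 0.087 and 0.165, and lambdaTry 0.007 and 0.123. Their channel-based means were 0.138 ± 0.00778, 0.126 ± 0.0552 and 0.065 ± 0.0820 (limma adjusted p = 0.818, 0.837 and 0.947).

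Next in the cluster are etaTry, with -0.033 and -0.028, and thetaTry, with -0.114 and -0.22, both negative on both arrays in the channel-based reading. The channel-based mean of thetaTry was -0.167 ± 0.0750 (limma adjusted p = 0.774). The spots of kappaTry, zetaTry, etaTry and thetaTry shared 1 position in 4 sub-grids, and the 20 other spots there had medians of -0.025 and -0.0205. Genes of both signs thus lay at the same position of different sub-grids. The sub-grid medians were 0.0405 and 0.145 for kappaTry and 0.039 and 0.109 for zetaTry. Those of etaTry were 0.002 and -0.017, and those of thetaTry -0.006 and -0.0425. With these medians subtracted, kappaTry had 0.0465 and 0.02 and zetaTry 0.093 and 0.034. etaTry then had -0.035 and -0.011, and thetaTry -0.108 and -0.1775. The part of array location in the trypsin values was not tested.

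The following genes, alphaTry, epsilonTry and betaTry, were negative on replicate 1 and slightly positive on replicate 2. betaTry had -0.469 and 0.001, epsilonTry -0.334 and 0.069, and alphaTry -0.183 and 0.02. As deposited the difference came almost entirely from replicate 1. With sub-grid medians subtracted epsilonTry had -0.284 and 0.208. The signs of alphaTry and betaTry on replicate 2 were not kept: that of betaTry turned with arrays centred on their medians, and both turned with sub-grid medians subtracted.

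The last members of the cluster are gammaTry, deltaTry and iotaTry. deltaTry had -0.239 and 0.12, a dye-based mean of -0.18 ± 0.0841 (limma adjusted p = 0.999). gammaTry, whose protein is known to be nearly identical to that of deltaTry, had -0.023 and -0.036. As with the amylase genes, a pair of close copies had different values. iotaTry had -0.095 on replicate 1 alone.

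Of the 19 proteases measured on both arrays, 4 (21.1%) were positive and 7 (36.8%) negative in the channel-based reading, against 27.5% and 24.9% of all features. By dye, 1 (5.26%) was positive and 7 (36.8%) negative, against 21.9% and 25.7%. The class medians were -0.0595 ± 0.111 and -0.058 ± 0.0827. On replicate 1 the protease median was -0.137, and on replicate 2 as deposited it was 0.02. As deposited, the median was thus below 0 on replicate 1 and above it on replicate 2.

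The lipase mag, which is known to split dietary triglycerides and sterol esters, had -0.051 on replicate 1 and 0.001 on replicate 2. Its means were -0.025 ± 0.0368 in the channel-based reading and -0.026 ± 0.0354 in the dye-based reading (SD, n = 2 arrays; limma adjusted p = 0.980 and 0.999). Both means lay within the spread between the arrays, and the sign on replicate 2 turned with centred arrays and with sub-grid medians subtracted.

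Other genes of digestion were taken from 4 lists, with 0 genes called by limma in either reading. The list of other carbohydrate enzymes and sugar genes had 9 measured genes. In the dye-based reading 7 were positive and 0 negative on both arrays, against 21.9% and 25.7% of all features. Their dye-based median was 0.183 ± 0.0325, and the medians of the single arrays were 0.097 and 0.143. Treh, the trehalase that splits the sugar of fly blood, had means over its probes of 0.404 and -0.395, a dye-based mean of 0.4 ± 0.00613 (limma adjusted p = 0.488). The trehalose transporter Tret1-1 had 0.198 and -0.276, and the glycogen phosphorylase Glyp had 0.205 and -0.161. The channel-based median was 0.00433 ± 0.170, with 1 gene positive and 1 negative on both arrays, against 27.5% and 24.9% of all features. These genes are also used outside the gut.

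The list of lipid digestion and sterols, in which mag is 1 of the genes, had 2 of 20 genes positive and 10 negative on both arrays in the dye-based reading, against 21.9% and 25.7% of all features, with a median of -0.0823 ± 0.0272. It included genes named only by CG number: CG6271 had -0.406 and 0.256, and CG6277 had -0.322 and 0.209. By channel, 6 genes were positive and 2 negative on both arrays, against 27.5% and 24.9% of all features. Lip1, a lipase gene, had -0.404 and -0.762, a channel-based mean of -0.583 ± 0.253 (limma adjusted p = 0.653).

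Other proteases, a list that also holds the member Jon25Bii, had 17 genes measured. On both arrays, 5 were positive and 6 negative by dye, against 21.9% and 25.7% of all features. By channel the counts were 3 and 3, against 27.5% and 24.9%. Ser12, a serine protease gene, had 0.244 and 0.212, and Ser8 had -0.18 and -0.321. The protease gene yip7 had -0.227 and 0.191. The list median was 0.0085 ± 0.0354 in the channel-based reading and 0.016 ± 0.00566 in the dye-based reading. By dye the medians of the single arrays, -0.029 and -0.021, had the opposite sign to the median of the gene means. The SD there is thus not an error of that median.

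The list of regulators of digestive enzyme genes, with 15 genes measured, includes transcription factors of the GATA family, the sugar-responsive factors Mondo and sug, and signals such as the TGF-beta ligand daw. Their means ran from -0.0665 to 0.112 in the channel-based reading and from -0.205 to 0.129 in the dye-based reading. The gene dve, a homeobox factor of the midgut, had -0.143 and 0.155, the gut peptide gene NPF had -0.271 and 0.138, and the activin receptor gene babo had 0.084 and 0.079. On both arrays, 4 were positive and 3 negative by channel, against 27.5% and 24.9% of all features. By dye the counts were 3 and 5, against 21.9% and 25.7%.

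**Figure D4:**
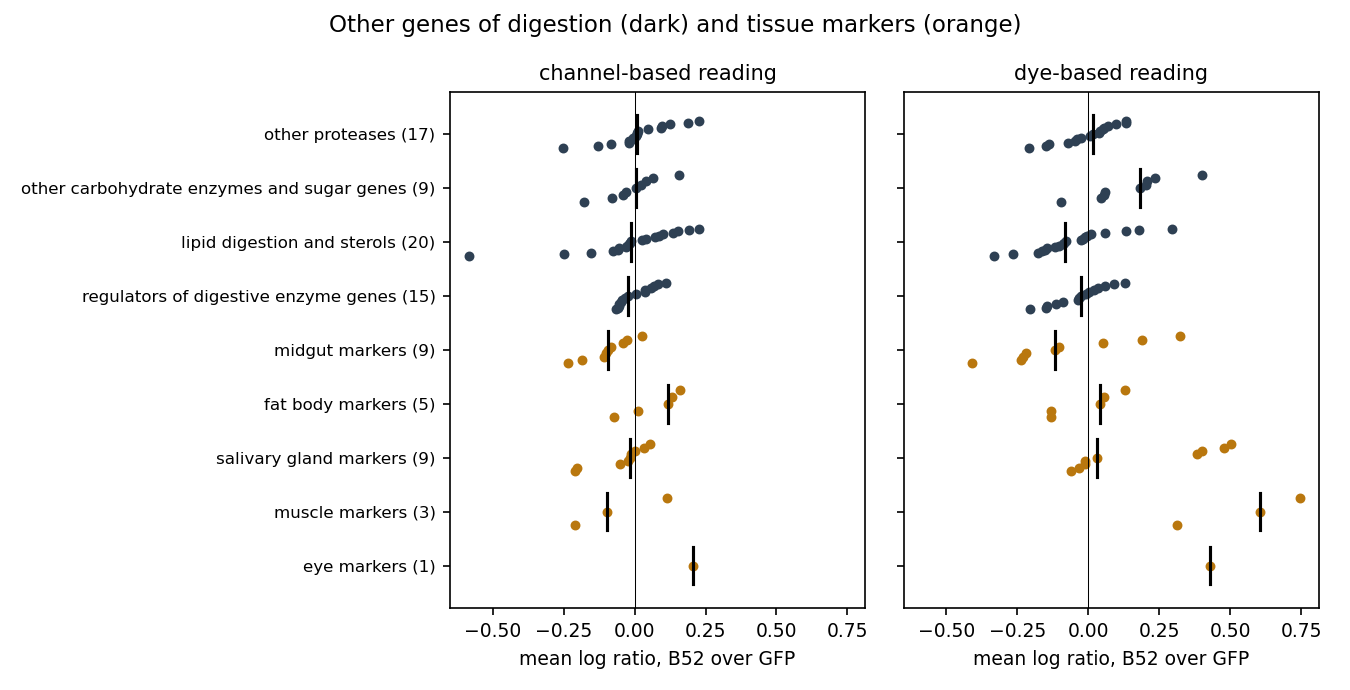
Mean log ratio of the 2 arrays, B52 over GFP, of single genes (points) in 4 lists of other digestion genes (dark) and 5 lists of tissue markers (orange), in the channel-based reading (left) and the dye-based reading (right), with the number of genes measured on both arrays in brackets and list medians as black lines. The sugar genes and the muscle markers lie to the right in the dye-based reading, with medians of 0.183 and 0.605, and the midgut markers mostly to the left.

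Markers of tissues in the larval RNA had the following values beside those of the enzymes. Midgut markers had 9 of 14 genes measured on both arrays, among them alphaTry and betaTry, which are members here. In the dye-based reading 3 were positive and 6 negative on both arrays, with a median of -0.115 ± 0.115. In the channel-based reading the counts were 0 and 0, with a median of -0.095 ± 0.144. Over all features the shares were 21.9% and 25.7% by dye and 27.5% and 24.9% by channel. Among the 6 negative by dye, betaTry, alphaTry and mex1 had deposited replicate 2 values of only 0.001, 0.02 and 0.033. With sub-grid medians subtracted, betaTry and alphaTry were no longer negative on both arrays by dye. The enterocyte gene mex1 had -0.402 and 0.033, and the mucin-related gene Mur29B had -0.508 and 0.309. Among peritrophic matrix genes, Peritrophin-15b had -0.335 and 0.121, and Peritrophin-A had 0.228 and -0.418. No copper cell marker was measured on both arrays.

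The salivary gland markers split in the dye-based reading: Sgs1 had 0.491 and -0.519 and ng1 had 0.267 and -0.687, while Sgs3, with 0.086 and 0.021, lay near 0. Of 9 genes, 4 were positive and 2 negative on both arrays in the dye-based reading, against 21.9% and 25.7% of all features. In the channel-based reading the counts were 2 and 1, against 27.5% and 24.9%. Sgs1 and ng1 thus had the signs of LysB and Amy-d, as did 21.9% of all features. Sgs4, with -0.048 and 0.014, and Sgs8, with -0.112 and 0.012, had the opposite signs. Muscle markers had 3 of 6 genes measured, all positive on both arrays in the dye-based reading, with a median of 0.605 ± 0.0863. Fat body markers had 5 of 8 genes measured and medians of 0.0425 ± 0.145 in the dye-based reading and 0.119 ± 0.0544 in the channel-based reading. Of 4 eye markers only Arr2 was measured on both arrays, and it had 0.634 and -0.225. The part of tissue composition in the enzyme values was not tested.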

How the data were processed

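Each spot of an array has 1 log ratio as deposited by the authors, with log base, direction, image analysis and normalisation not given in the sources used here, and with array medians of -0.006 and 0.01. Of 15744 spots, 5 on replicate 1 held the code -10000 and were treated as missing. The unit was planned as a log value and is handled as a log ratio of unstated base. The 960 spots at 40 positions without a name in any of 24 sub-grids were left out as controls. Probes had 1 symbol (13147), several (99) or none (2498), from a platform annotation that may be old. Of the 54 members, 53 matched the RefSeq table and took its current symbol.

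Probes measured on both arrays (12500) were averaged per gene to 11883 features. For each reading, limma 3.58.1 (lmFit, eBayes; R 4.3.3) tested the mean against 0 at a threshold of 0.05, leaving 1 residual degree of freedom. In simulated data of 11883 features with independent noise, 100 features were changed by a log ratio of 1 and 100 by 0.5. The larger size was recovered for 100% of changed features by channel and 96% by dye, and the smaller for 35% and 7%. Sizes under 0.5, which most means here had, and data with fewer changed features were not simulated. The absence of calls therefore does not show an absence of change. Summaries and plots used Python 3.11.15, numpy 2.4.6, pandas 2.3.3 and matplotlib 3.10.9. Errors (±) are SDs over the 2 arrays or, for a class or list, over the 2 array medians. A median of gene means can lie outside the array medians, so that SD is not its error.

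The members, lists and tests were chosen with earlier results of these data known. Full values went to up to 4 proteases and 3 carbohydrate enzymes per direction and reading, ranked by the smaller absolute value of the arrays, to all lysozymes and to mag. Genes of other lists followed the same value or were named after their values were seen, as were members given by array values alone. Alternatives covered centring, scaling, sub-grid medians, single probes, annotation symbols, the robust model, named probes, the threshold and single arrays.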

Additional observations from a re-analysis of the deposited data

How the results depend on the processing

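The counts called by limma stayed at 0 in both readings under each alternative run, including single probes, the robust model, named probes alone and an adjusted p of 0.1. The counts of digestive enzyme genes of 1 sign stayed within 1.5 times of their values, and cannot be formed without a replicate. Each gene had 1 probe, so single probes and annotation symbols repeat the class medians by construction. Among centring, scaling and sub-grid subtraction, only the last moved a class median by more than the SD of the array medians, as given below for carbohydrate enzymes. On single arrays the channel-based median of all members lay between -0.022 and -0.005, and the dye-based median between -0.022 and 0.005. The carbohydrate median lay between -0.011 and 0.053 in the channel-based reading and between 0.011 and 0.053 in the dye-based reading, where it was 0.00175 with sub-grid medians subtracted. Protease medians lay between -0.137 and 0.02 in the channel-based reading and between -0.137 and -0.02 in the dye-based reading, and lysozyme medians between -0.5 and 0.152 and between 0.152 and 0.5. With LysB, LysC, LysD and LysE as 1 gene, an alternative chosen after seeing the data, the dye-based lysozyme median was 0.0452. It then lay between larger values of both signs. The causes were not tested, other than fewer genes or arrays by construction. Each array holds both groups and is 1 replicate of the same ratio, so the test of the mean ratio against 0 already used the pairing within arrays. The files used here hold no intensities, so nearness to background could not be judged.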
